A study of Homo sapiens with 4 samples.

Results

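The genes described here encode the general machinery that degrades messenger RNA in human cells, outside the factors of nonsense-mediated decay (NMD). They were taken by gene symbol: the exosome subunits (EXOSC genes), the CCR4-NOT subunits (CNOT genes), the decapping enzymes and their partners (DCP, DCPS, EDC3, EDC4, PATL1, DDX6, PNRC2), the LSM genes, and XRN1, XRN2, PAN2, PAN3, PARN, DIS3, DIS3L, DIS3L2, STAU1, STAU2, SKIV2L, TTC37, PELO and HBS1L. No measured value entered the rule. It found 56 of the 15942 genes in the deposited table, and all 56 passed the filter on low counts. CNOT9 is not in the table under that symbol. Its older symbol RQCD1 is there but does not match the rule, so it is counted below with the genes outside the rule.

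RNA came from H9, an established human embryonic stem cell line grown on Matrigel in E8 medium. There were 2 control libraries from cells given a small interfering RNA (siRNA) against luciferase (siLuc), called control a and control b because the table names both alike, and 2 libraries from cells given an siRNA against UPF1 (siUPF1 replicates 1 and 2). UPF1 is the RNA helicase at the centre of NMD, the pathway that removes transcripts on which translation stops early. The comparison asks how the RNA of these genes differed upon loss of UPF1. The treatment text is the same for all 4 libraries and also speaks of an siRNA against UPF3A and of actinomycin D, which blocks transcription. It gives no time for any library, so an effect on RNA synthesis cannot be told apart from one on RNA stability. The labels do not say whether a group's libraries are separate cultures. The p-values therefore reflect only library-to-library spread, possibly technical. In such bulk RNA, fewer cells expressing a gene and less of its RNA per cell cannot be told apart.

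Bulk decay of an mRNA usually begins when its poly(A) tail is shortened, first by the PAN2-PAN3 complex and then by CCR4-NOT. The deadenylated end is bound by a ring of LSM proteins with PATL1, which together with DDX6 and the EDC proteins activate removal of the cap by DCP2. XRN1 then degrades the body of the RNA from the 5′ end, or the exosome degrades it from the 3′ end with the help of the Ski complex. NMD draws on the same enzymes: UPF1 and its partners recruit decapping and deadenylation factors or cut the transcript, and the fragments are cleared by XRN1 and the exosome.

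Many of these genes have, beside their coding transcripts, transcripts that the GENCODE release 29 annotation (GRCh38) classes as NMD substrates. Of the 56 genes, 30 have at least 1 (53.6%, against 41.0% of 13475 coding genes tested), 54 such transcripts in all. Every one of the 54 has its stop codon more than 50 nucleotides ahead of the last exon junction, which is how that class is defined. The stop lies in a coding exon of the longest coding transcript for 32 of them, in one of its introns for 20, and in an untranslated exon for 2. The ends of 6 of these reading frames are shown to place the stop codons whose position ahead of the last junction puts the transcripts in this class. They belong to XRN1, the only one of the 56 genes that rose, and to 4 genes of other steps that did not pass the test. Each line gives the last 30 bases of the frame with the stop codon in capitals, 5′ to 3′ on the minus strand, or on the plus strand for DIS3L2.

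XRN1, transcript with an upstream stop: gggaggcgttttagattatgcttggatTAA
XRN1, transcript with a downstream stop: tcaccacagtcatttgccatgaagagaTGA
DCP1A: tttcttctgtatagaaatgcaagctgtTGA
CNOT1: ctcgaatacttgatgtggcccaggactTGA
DIS3: ttaaaatgtgacgtggacaggcatctcTGA
DIS3L2: gctccgcaggagccctcaataaaagccTGA

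The XRN1 stops are at chr3:142423627-142423629 and chr3:142332416-142332418 on GRCh38, 597 and 155 nucleotides ahead of the last junction of their transcripts, both in coding exons of the longest coding transcript. The DCP1A stop (chr3:53338141-53338143) lies in an intron of the longest coding transcript, 256 nucleotides ahead of the last junction. The stops shown for CNOT1 (chr16:58576465-58576467), DIS3 (chr13:72768903-72768905) and DIS3L2 (chr2:232330697-232330699) lie in coding exons, 125, 1028 and 563 nucleotides ahead of the last junction. CNOT1 and DIS3L2 each have further annotated NMD transcripts that are not shown, and their stops include some in introns of the longest coding transcript. The deposited counts are sums over all transcripts of a gene, so they do not show which of these transcripts were present.

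The siRNA target itself was lower. UPF1 stood at 219 and 205 CPM in the controls and 60.8 and 78.2 CPM in siUPF1 replicates 1 and 2 (CPM, TMM-scaled counts per 1000000), so that 32.8% of the mean control level remained, and its log2 fold change was -1.60 (SE 0.073). Pluripotent cell markers were present in all 4 libraries, with all 12 genes of the list tested, control means of 98.9 to 484 CPM and a median log2 fold change of -0.18. Of these 12, 6 passed the test as lower and 0 as higher (DESeq2 called 3 lower), but with 1 library left out the number lower ran from 0 (without control a) to 10 (without siUPF1 replicate 1). Over all genes tested, 9.14% passed as lower. The 3 of the 12 markers with the smallest p were DNMT3B at -0.30 (SE 0.072), POU5F1 at -0.25 (SE 0.070) and L1TD1 at -0.23 (SE 0.072) on the log2 scale. After each library's trend against reads per transcript base was taken out, 3 of the 12 were lower, the median was -0.097, and these genes stood at -0.13, -0.079 and -0.095. Of the markers of differentiated cells, 9 were tested, and 6 did not pass (NES, COL1A1, KRT18, PAX6, SOX1 and KRT7). Control means were 336 CPM for NES, 158 for COL1A1, 95.7 for KRT18 and 57.1 for VIM. Those of KRT7, PAX6, SOX1, MIXL1 and FOXA2 were lower, from 4.53 to 11.5 CPM. VIM was higher at 0.38 (SE 0.081), or 0.23 without siUPF1 replicate 1. FOXA2 and MIXL1 were lower at -2.97 (SE 0.37) and -0.82 (SE 0.25), both from low levels. FOXA2 had means of 4.53 CPM in the controls and 0.567 CPM after UPF1 siRNA, and MIXL1 of 5.38 and 3.05 CPM. MIXL1 did not pass with DESeq2 (adjusted p = 0.197). EOMES, SOX17, GATA4, GATA6, CDX2, T and COL3A1 were not among the genes tested. Whether the cells' state had a part in the results below was not tested. Total counts were 8887239 to 11200973 per library, of which the 56 genes took 0.532% to 0.563%, and each of the 56 had at least 235 counts in every library.

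Few genes of the general decay machinery passed the test after UPF1 knockdown. Of the 56 genes 1 rose (XRN1), 3 fell (XRN2, PAN2 and CNOT11) and 52 did not pass (edgeR's quasi-likelihood test with p adjusted by Benjamini-Hochberg over 15557 genes, threshold 0.05). That is 7.14% of them, against 25.9% of all genes tested (16.8% higher and 9.14% lower) and 24.9% of the 9949 genes in the same range of control CPM. DESeq2 called 0 of the 56 (3 at an unadjusted p under 0.05), and edgeR called 0 when control a was left out and 0 when control b was (2 and 5 genes with unadjusted p below 0.05). Over all genes DESeq2 called 1280 higher and 467 lower of 15942, and the fits without control a and control b called 12.7% and 14.0%. The log2 fold changes ran from -0.21 for PAN2 to 0.28 for XRN1 with a median of -0.061, where the median was -0.0075 for all genes and -0.027 for those in the same CPM range. All 56 lay within 0.3 of zero, as did 75.1% of all genes and 87.7% of those in the same CPM range. That bound lies just beyond the value of XRN1, so that all 56 fall within it follows from its choice. Within 1.5-fold lay all 56, 14003 of the 15557 genes and 9669 of the 9949.

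The intervals hold for each gene taken singly and reflect only library-to-library spread, which may be technical. The 95% interval of the fold change lay wholly within 1.5-fold for all 56 genes, against 72.6% of all genes tested and 9274 of the 9949 genes in the same range of control CPM. The bound farthest from no change was 1.35-fold, the upper bound of XRN1. SEs ran from 0.070 to 0.12 on the log2 scale, and they borrow the estimate of spread from all genes, since a group holds 2 libraries. A miss of the threshold does not show that a gene was unchanged: 7 of the 56 had an unadjusted p under 0.05, against 36.5% of all genes. Both siUPF1 libraries lay outside the range of the controls for 32 of them, 26 below and 6 above. That is 57.1%, against 63.4% of all genes (32.3% above and 31.1% below). Over the 56 genes the median absolute log2 difference was 0.0435 between the controls and 0.0846 between the siUPF1 libraries, against 0.0997 between the groups. With the trend on read density removed (described below for XRN1), all genes split into 2183 higher and 2053 lower, where edgeR gave 2613 and 1422 without that step.

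**Figure D1:**
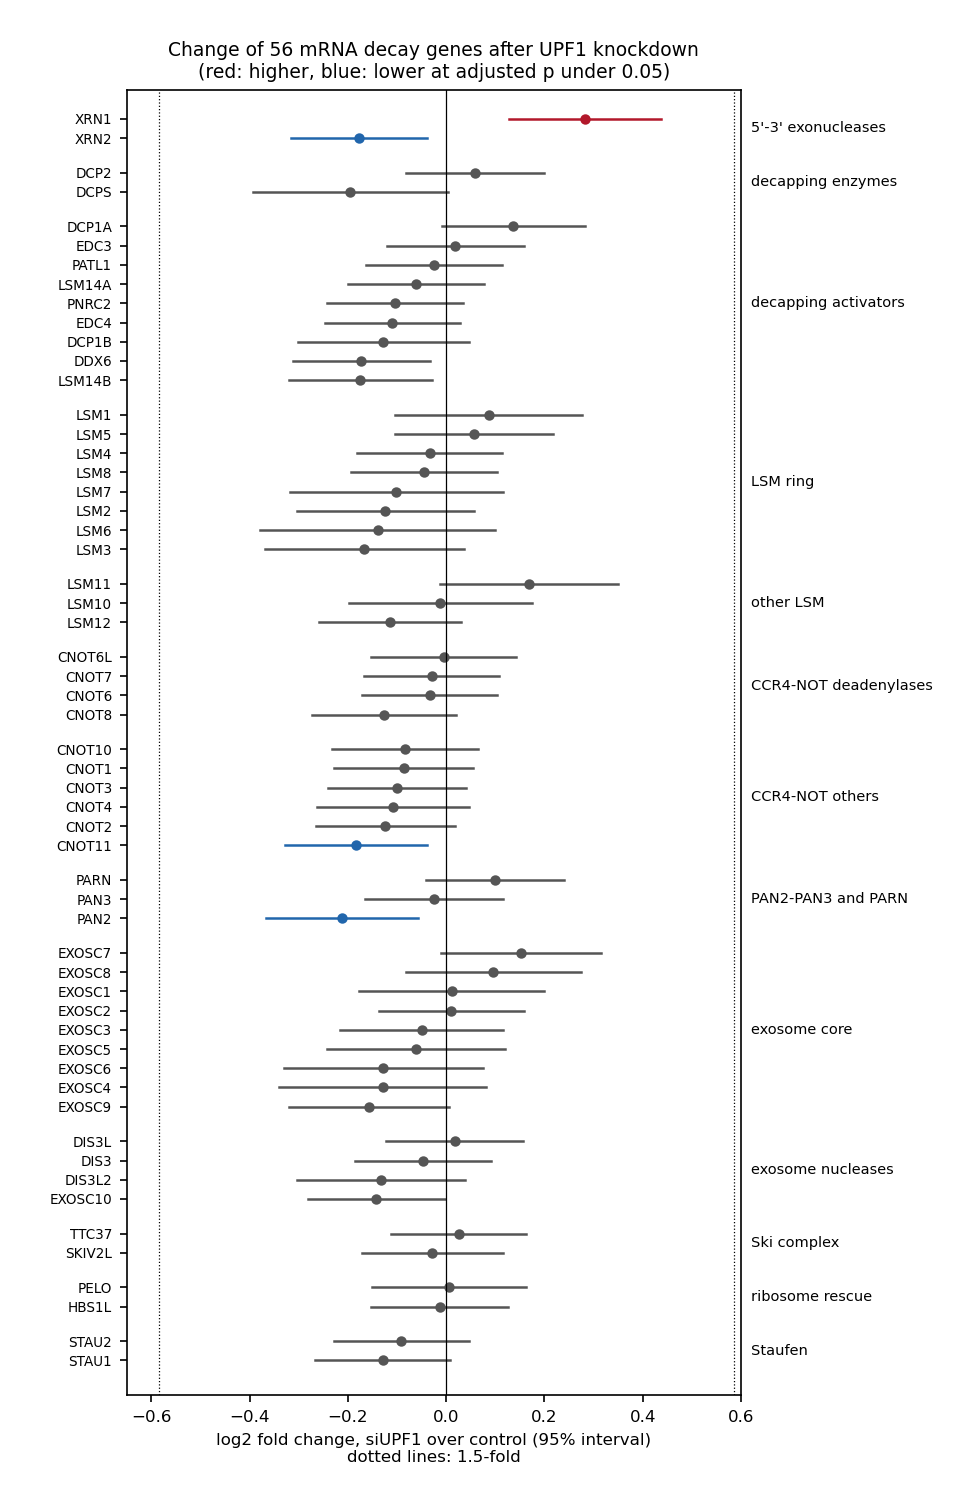
Log2 fold change (siUPF1 over control) of each of the 56 genes with its 95% interval, grouped by role, from edgeR on 2 libraries per group. All intervals lie between the dotted lines at 1.5-fold, and XRN1 (red) and XRN2, PAN2 and CNOT11 (blue) are the 4 genes past an adjusted p of 0.05.

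**Figure D2:**
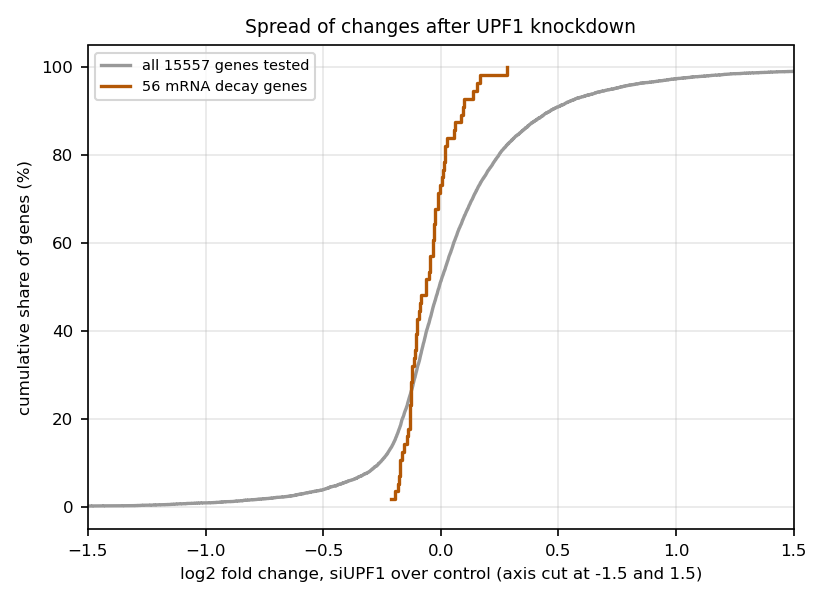
Cumulative share of genes (%) by log2 fold change, siUPF1 over control, for the 56 decay genes and for all 15557 genes tested. The decay genes run from -0.21 to 0.28, while 75.1% of all genes, and 87.7% of those in the same range of control CPM, lie within 0.3 of zero. The bound of 0.3 lies just beyond the highest decay gene.

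The exonucleases that degrade RNA from the 5′ end moved in opposite directions. XRN1, the cytoplasmic enzyme that clears decapped mRNA and the downstream fragments of NMD substrates, stood at 65.1 and 65.1 CPM in the controls and 76.2 and 82.0 CPM in siUPF1 replicates 1 and 2. Both siUPF1 libraries lay above the controls, which lay close together. XRN1 rose by 0.28 on the log2 scale (SE 0.079, 95% interval 0.13 to 0.44, adjusted p = 0.00253, edgeR quasi-likelihood test), a 1.22-fold change. XRN2, the mainly nuclear relative known for its part in transcription termination, stood at 178 and 173 CPM in the controls and 163 and 147 CPM in siUPF1 replicates 1 and 2. Both siUPF1 libraries lay below the controls, replicate 2 the further, and its log2 fold change was -0.18 (SE 0.070, 95% interval -0.32 to -0.039, adjusted p = 0.0466, edgeR quasi-likelihood test). Per kilobase of transcript XRN1 was far the lower of the pair. The ratio of XRN1 to XRN2 per kilobase was 0.124 and 0.127 in the controls and 0.158 and 0.189 after UPF1 siRNA.

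These calls depended on the test and on keeping both controls. A fit without either control takes its spread from the siUPF1 pair alone. Without control a and without control b, XRN1 stood at 0.28 and 0.27 on the log2 scale, and XRN2 at -0.16 and -0.20. XRN1 kept a log2 fold change of 0.18 to 0.33 over 11 alternatives and passed in 8 of them, but not with DESeq2 (adjusted p = 0.0820), without control a (0.0808) or without control b (0.0871). XRN2 passed in 6, with adjusted p from 0.00510 to 0.368, the highest without siUPF1 replicate 2, where its log2 fold change was -0.10. XRN1 had 0.0717 reads per transcript base and XRN2 0.481, and the highest value of any gene tested was 1.12. Over all coding genes the log2 fold change had a Spearman's rho of -0.192 with this read density (13475 genes, which are not independent replicates). With the trend on read density removed from each library, XRN1 stood at 0.18 (adjusted p = 0.0369, edgeR quasi-likelihood test) and XRN2 at -0.12 (0.0701).

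**Figure D3:**
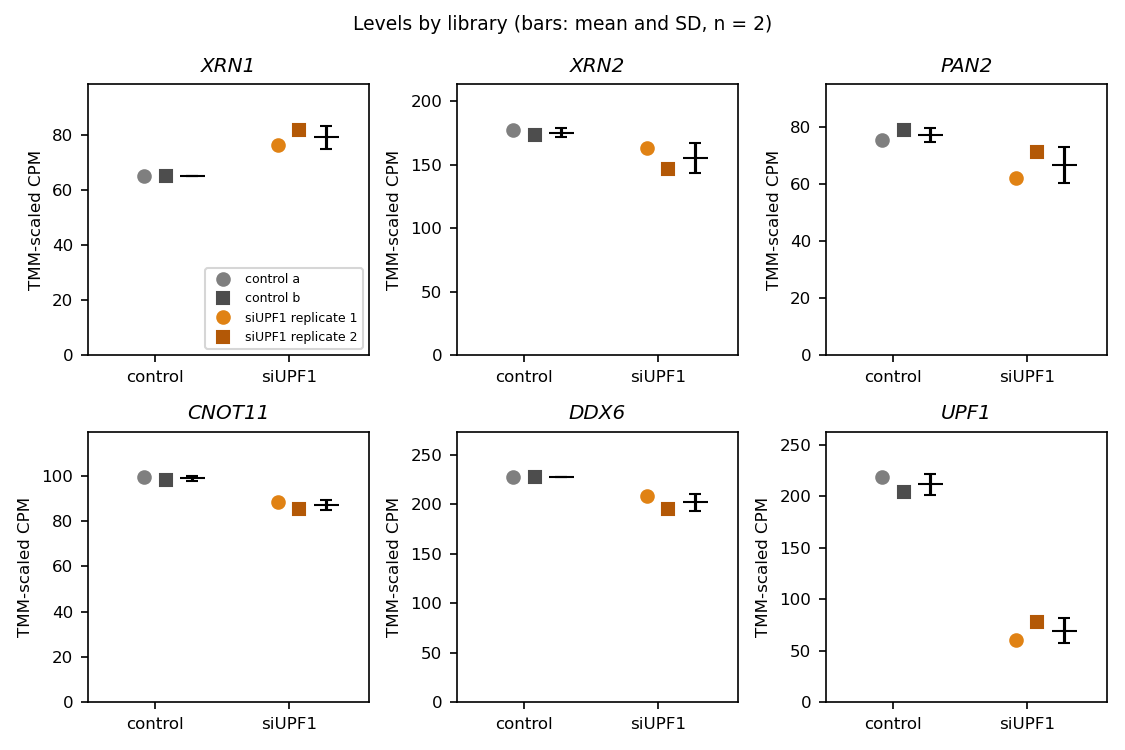
TMM-scaled CPM in each of the 4 libraries for the 4 genes that passed, for DDX6, which did not (adjusted p = 0.0553, edgeR quasi-likelihood test), and for UPF1, with the mean and SD of each group (n = 2). XRN1 is above the controls in both siUPF1 libraries and XRN2, PAN2, CNOT11 and DDX6 are below them, by far smaller amounts than UPF1.

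**Figure D4:**
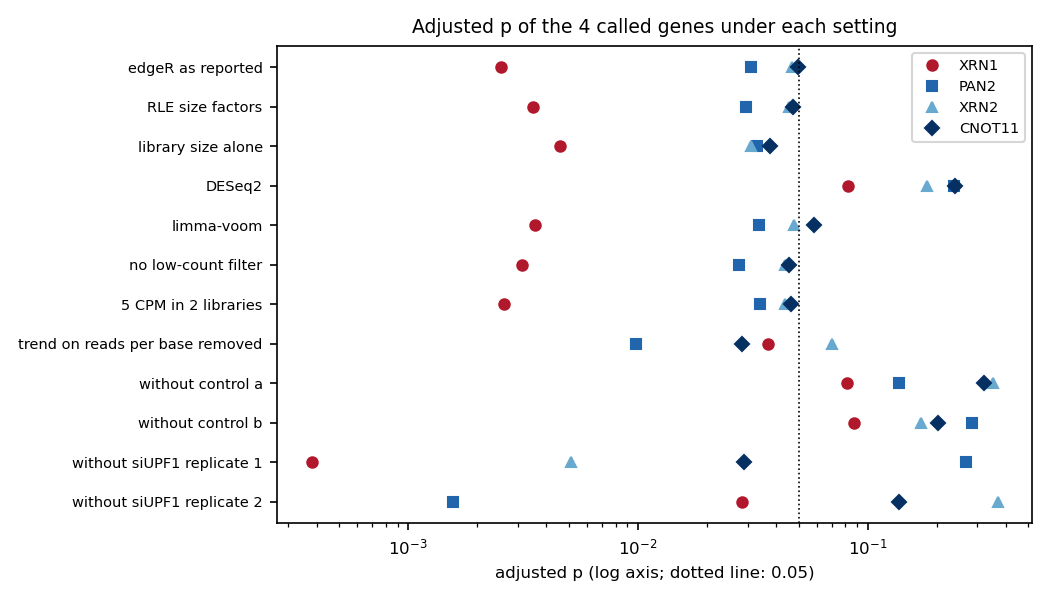
Adjusted p of XRN1, PAN2, XRN2 and CNOT11 (log axis) in the edgeR fit as reported and under 11 alternatives. All 4 lie right of the dotted line at 0.05 with DESeq2 and without either control.

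Of the enzymes that shorten poly(A) tails, PAN2 passed the test. PAN2, the catalytic subunit of the PAN2-PAN3 complex, stood at 75.5 and 79.0 CPM in the controls and 62.1 and 71.1 CPM in siUPF1 replicates 1 and 2. Both siUPF1 libraries lay below the controls, replicate 1 the further, and its log2 fold change was -0.21 (SE 0.079, 95% interval -0.37 to -0.058, adjusted p = 0.0312, edgeR quasi-likelihood test). The fall rested largely on siUPF1 replicate 1, without which it was -0.12. PAN2 passed in 7 of 11 alternatives. It missed the threshold with DESeq2 (adjusted p = 0.238) and in the fits without siUPF1 replicate 1, without control a (-0.25) or without control b (-0.19). With the trend on read density removed it stood at -0.29 (adjusted p = 0.00980, edgeR quasi-likelihood test). PAN3, which holds PAN2 on the mRNA, stood at 107, 108, 102 and 110 CPM in controls a and b and siUPF1 replicates 1 and 2, with overlapping groups and a log2 fold change of -0.025 (SE 0.072). The ratio of PAN2 to PAN3 per kilobase was 0.716 and 0.739 in the controls and 0.619 and 0.658 after UPF1 siRNA. PARN, a poly(A)-specific nuclease that also trims noncoding RNAs, did not pass at 0.099 (SE 0.072).

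None of the 4 deadenylase genes of CCR4-NOT passed with edgeR, with 0 of 4 at an unadjusted p under 0.05 there and 0 of 4 called by DESeq2. CNOT7 and CNOT8 encode alternative versions of one catalytic subunit, CNOT6 and CNOT6L of the other. CNOT8 had the smallest p of the 4, at 89.6, 95.1, 87.2 and 82.1 CPM in controls a and b and siUPF1 replicates 1 and 2, and -0.13 (SE 0.074) on the log2 scale, with both siUPF1 libraries below the controls. CNOT7 (-0.030, SE 0.070), CNOT6 (-0.033, SE 0.070) and CNOT6L (-0.0051, SE 0.075) had overlapping groups. The ratio of CNOT7 to CNOT8 per kilobase was 1.51 ± 0.0993 in the controls and 1.61 ± 0.0529 after UPF1 siRNA, and that of CNOT6 to CNOT6L was 2.49 ± 0.0774 in the controls and 2.44 ± 0.174 after UPF1 siRNA (SD, n = 2 per group).

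The other 6 CCR4-NOT genes among the 56 all had log2 fold changes below zero, from -0.18 to -0.084, and 1 of them, CNOT11, passed. CNOT11, a subunit bound to the end of the CNOT1 scaffold together with CNOT10, stood at 99.6 and 98.2 CPM in the controls and 88.6 and 85.5 CPM in siUPF1 replicates 1 and 2. Both siUPF1 libraries lay below the controls, for a log2 fold change of -0.18 (SE 0.074, adjusted p = 0.0497, edgeR quasi-likelihood test). That is just under the threshold, and over 11 alternatives the adjusted p ran from 0.0284 to 0.321, with 6 under 0.05. Those that missed it were DESeq2, limma-voom and the fits without control a, without control b or without siUPF1 replicate 2. CNOT1, the scaffold of the complex, was the most abundant of the 56 in counts, at 427, 416, 408 and 386 CPM in controls a and b and siUPF1 replicates 1 and 2, and did not pass at -0.087 (SE 0.072). CNOT2 (-0.12, SE 0.072) and CNOT3 (-0.10, SE 0.072), which form a module on that scaffold, CNOT10 (-0.084, SE 0.076) and the ubiquitin ligase gene CNOT4 (-0.11, SE 0.079) did not pass either. CNOT4 passed in 1 alternative, without siUPF1 replicate 2, at -0.24, and stood at 0.0069 without siUPF1 replicate 1, so its direction rests on 1 library.

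None of the 11 genes of decapping enzymes and activators passed with edgeR, where 2 had an unadjusted p under 0.05, and DESeq2 called 0. DCP2, which removes the cap, stood at 274, 276, 294 and 280 CPM in controls a and b and siUPF1 replicates 1 and 2. Both siUPF1 libraries lay above the controls, by a log2 fold change of 0.059 (SE 0.072). DCPS, which hydrolyses the cap left over after decay from the 3′ end, stood at 39.3, 38.1, 33.4 and 34.1 CPM in the same order, with both siUPF1 libraries lower and a log2 fold change of -0.19 (SE 0.10). Its adjusted p was 0.145 (edgeR quasi-likelihood test), and 0.0362 with the trend on read density removed.

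Among the activators, the RNA helicase gene DDX6 came closest to the threshold. It stood at 227 and 228 CPM in the controls and 208 and 196 CPM in siUPF1 replicates 1 and 2, with both siUPF1 libraries below the controls, and its log2 fold change was -0.17 (SE 0.071, adjusted p = 0.0553, edgeR quasi-likelihood test). It passed in 4 of 11 alternatives, with adjusted p from 0.0177 to 0.288. LSM14B, one of a pair of DDX6-binding proteins, was at -0.17 (SE 0.074) and its paralog LSM14A at -0.061 (SE 0.070); LSM14B had siUPF1 libraries below both controls and LSM14A had overlapping groups. DCP1A and DCP1B, alternative partners of DCP2, were at 0.14 (SE 0.074) and -0.13 (SE 0.088). The siUPF1 libraries lay above the controls for DCP1A (85.4, 89.0, 94.4 and 97.4 CPM in controls a and b and siUPF1 replicates 1 and 2) and below them for DCP1B (50.6, 49.7, 44.6 and 47.0 CPM). The ratio of DCP1A to DCP1B per kilobase was 0.604 ± 0.0251 in the controls and 0.727 ± 0.0114 after UPF1 siRNA (SD, n = 2 per group), and this ratio was not tested. The scaffold genes EDC3 (0.019, SE 0.071) and EDC4 (-0.11, SE 0.070) and PATL1 (-0.025, SE 0.071) did not pass. PNRC2, which is known to link UPF1 to DCP1A, stood at 130, 127, 125 and 114 CPM in the same order with both siUPF1 libraries lower, and did not pass at -0.10 (SE 0.071).

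The 8 LSM genes of the ring, of which LSM1 marks the cytoplasmic form and LSM8 the nuclear form that binds U6 RNA, had log2 fold changes from -0.17 to 0.086. None passed with edgeR, 0 of 8 had an unadjusted p under 0.05 and DESeq2 called 0. LSM3 had the smallest p, at 36.9, 36.2, 34.3 and 30.9 CPM in controls a and b and siUPF1 replicates 1 and 2, with both siUPF1 libraries lower and a log2 fold change of -0.17 (SE 0.10). LSM1 was at 0.086 (SE 0.097) and LSM8 at -0.046 (SE 0.076), with a ratio of LSM1 to LSM8 per kilobase of 6.14 ± 0.349 in the controls and 6.71 ± 0.285 after UPF1 siRNA (SD, n = 2 per group). Of the rest, LSM5 was at 0.057 (SE 0.082), LSM4 at -0.033 (SE 0.075), LSM7 at -0.10 (SE 0.11), LSM2 at -0.12 (SE 0.092) and LSM6 at -0.14 (SE 0.12). Replicate 2 was the lower of the siUPF1 pair for most ring genes, the median log2 difference of replicate 2 minus replicate 1 being -0.13 over the 8. Outside the ring, LSM10 (-0.012, SE 0.095) and LSM11 (0.17, SE 0.092), which belong to the particle that processes histone mRNAs, and LSM12 (-0.11, SE 0.074) did not pass. The controls of LSM11 differed from each other, at 36.8 and 45.2 CPM, and control b lay within the siUPF1 range of 44.4 to 47.9 CPM.

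None of the 9 exosome core genes and 4 nuclease genes passed with edgeR, where 1 (EXOSC10) had an unadjusted p under 0.05, and DESeq2 called 0. The 9 core genes, which encode the catalytically inactive ring and its cap, went both ways, from -0.16 to 0.15 with a median of -0.050. EXOSC9 had the smallest p of the core, at 62.5, 61.0, 55.3 and 55.3 CPM in controls a and b and siUPF1 replicates 1 and 2, both siUPF1 libraries being lower and the log2 fold change -0.16 (SE 0.083). EXOSC7 was the one core gene with both siUPF1 libraries higher, at 57.2, 55.2, 64.4 and 60.5 CPM in the same order and 0.15 (SE 0.083) on the log2 scale. It passed with the trend on read density removed (adjusted p = 0.0235, edgeR quasi-likelihood test) and in no other alternative. EXOSC8 was at 0.096 (SE 0.091), EXOSC1 at 0.012 (SE 0.096), EXOSC2 at 0.011 (SE 0.076), EXOSC3 at -0.050 (SE 0.085) and EXOSC5 at -0.061 (SE 0.092). EXOSC6 (-0.13, SE 0.10) and EXOSC4 (-0.13, SE 0.11) varied most between the controls, at 40.7 and 32.2 CPM and at 36.7 and 31.3 CPM, and the siUPF1 libraries lay within or near that span.

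The nucleases that give the exosome its activity, and their relative that works without it, did not pass. EXOSC10, a mainly nuclear nuclease, stood at 126, 122, 114 and 111 CPM in controls a and b and siUPF1 replicates 1 and 2, with both siUPF1 libraries lower and a log2 fold change of -0.14 (SE 0.071, adjusted p = 0.128, edgeR quasi-likelihood test). DIS3, the main catalytic subunit in the nucleus, was at -0.047 (SE 0.071), its cytoplasmic paralog DIS3L at 0.017 (SE 0.071), and DIS3L2, which degrades uridylated RNA apart from the exosome, at -0.13 (SE 0.087). Per kilobase DIS3 was lower than DIS3L (ratio 0.621 ± 0.0215 in the controls and 0.594 ± 0.0140 after UPF1 siRNA) and higher than DIS3L2 (ratio 1.30 ± 0.0707 in the controls and 1.38 ± 0.174 after UPF1 siRNA; SD, n = 2 per group). DIS3L2 passed with the trend on read density removed (adjusted p = 0.0398, edgeR quasi-likelihood test).

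The genes that feed RNA to the cytoplasmic exosome or rescue stalled ribosomes had log2 fold changes between -0.028 and 0.025. SKIV2L, the helicase of the Ski complex, stood at 96.5, 95.8, 92.0 and 96.4 CPM in controls a and b and siUPF1 replicates 1 and 2, with overlapping groups and a log2 fold change of -0.028 (SE 0.073). Its scaffold TTC37 was at 0.025 (SE 0.071). PELO and HBS1L, which recognise ribosomes stalled on an mRNA, were at 0.0060 (SE 0.080) and -0.013 (SE 0.071), with intervals of -0.15 to 0.16 and -0.15 to 0.13 and with overlapping groups in both cases. HBS1L, the one of the pair with the smaller p, stood at 124, 123, 125 and 119 CPM in the same order. Of the Staufen genes, whose proteins bind double-stranded RNA and recruit UPF1 to a related decay pathway, STAU1 stood at 182, 175, 168 and 159 CPM and STAU2 at 136, 137, 130 and 127 CPM, again in the same order. Both siUPF1 libraries were lower for each, with log2 fold changes of -0.13 (SE 0.070) and -0.091 (SE 0.070), and neither passed (adjusted p = 0.169 and 0.359, edgeR quasi-likelihood test). The ratio of STAU1 to STAU2 per kilobase was 1.44 ± 0.0542 in the controls and 1.40 ± 0.0356 after UPF1 siRNA (SD, n = 2 per group).

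Levels per transcript length ran from 6.24 to 60.6 CPM per kilobase among the 56 genes. In the controls LSM7 was highest (60.6 ± 0.173; SD, n = 2), followed by CNOT7 (55.3 ± 1.33), PNRC2 (53.4 ± 0.818), CNOT1 (53.3), LSM3 (52.8 ± 0.683) and LSM2 (52.3 ± 1.91). PNRC2, CNOT1, LSM3 and LSM2 differed from their neighbours among these 4 by less than the SD of either neighbour. The lowest were LSM11 (6.24 ± 0.908), XRN1 (6.42 ± 0.00637), LSM8 (6.69 ± 0.0365) and CNOT6L (9.66 ± 0.536), and LSM11 lay within its own SD of XRN1 and LSM8. The length behind the deposited values was 12480 nucleotides for LSM8, longest of the 56, so its level per length rests on that gene model. The median of the 56 genes was 35.2 CPM per kilobase, against 16.6 for all genes tested. The summed level of all 56 went from 1874 ± 39.2 to 1795 ± 51.0 CPM per kilobase (SD, n = 2 per group), a ratio of 0.958. By role the ratio was lowest for the 5′ exonucleases (0.922), the CCR4-NOT scaffold and other subunits (0.924) and Staufen (0.924). The sum of the 5′ exonucleases was mostly XRN2, at 51.2 CPM per kilobase in the controls beside 6.42 for XRN1, which rose. The ratio was 0.986 for the exosome core and 0.998 for stalled ribosome rescue. The summed level did not fall for PAN2-PAN3 and PARN or for the Ski complex. The first of these sums covers genes that went different ways, with PAN2 at -0.21 and PARN at 0.099 on the log2 scale. No SD of these ratios was computed, and differences between roles were not tested.

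**Figure D5:**
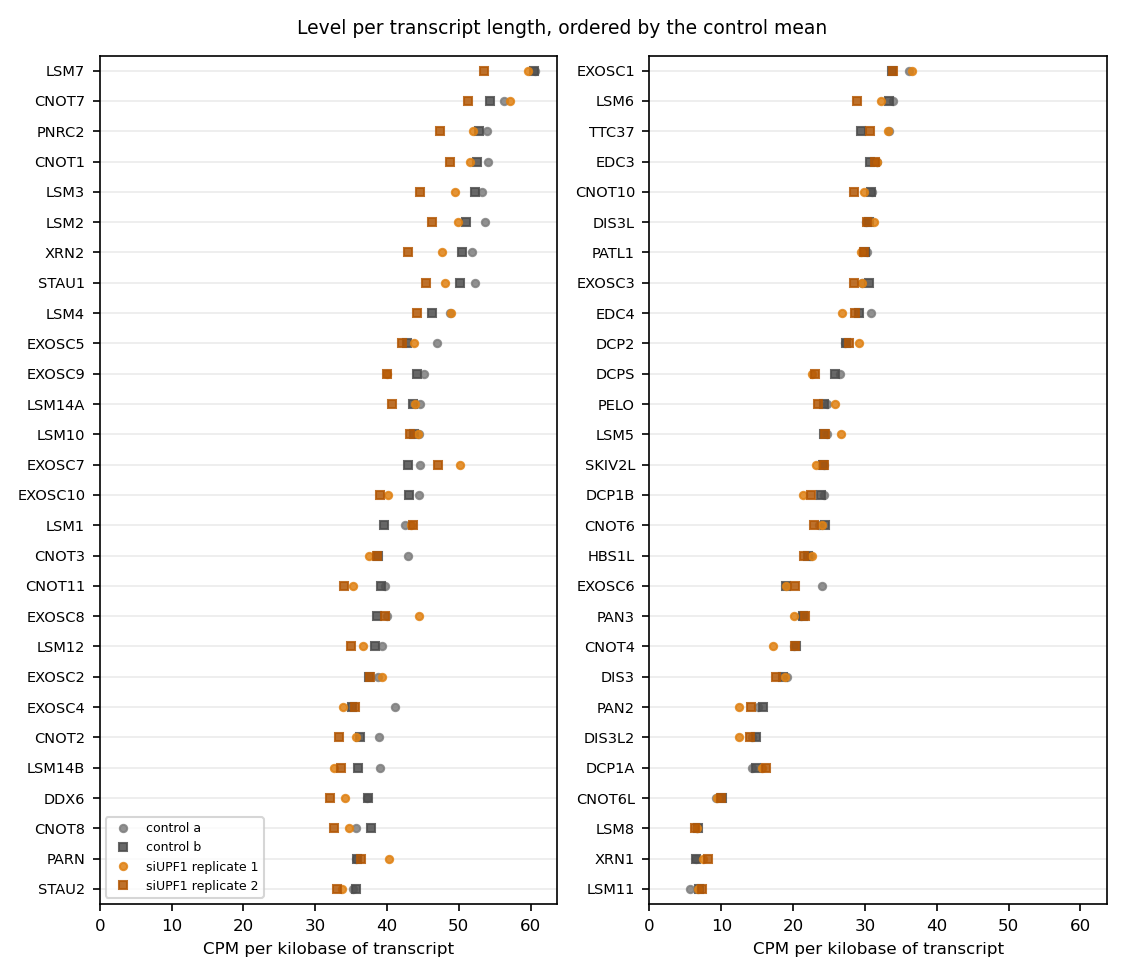
CPM per kilobase of transcript of each of the 56 genes in the 4 libraries, ordered by the control mean and split over 2 panels. LSM7 is highest and LSM11 lowest, and for most genes the 4 libraries lie close together beside the distance between genes.

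Features of the transcripts that the choice of genes did not use showed small differences, which are given as a description. The 30 genes with an annotated NMD transcript had a median log2 fold change of -0.040, with 1 higher and 0 lower, and the 26 without had a median of -0.11, with 0 higher and 3 lower (edgeR; DESeq2 called 0 in each set). Over all coding genes tested, 977 of 5528 genes with such a transcript were higher and 390 lower (median 0.011), and 1275 of 7947 without were higher and 933 lower (median -0.030). The 13 genes with a 3′ untranslated region of at least 2252 nucleotides, the upper quartile of coding genes, had a median of -0.013 and the other 43 a median of -0.091, and over all coding genes these were 0.011 and -0.020. XRN1, with 4904 nucleotides, is among the 13, and so are DCP2 (7486), DIS3 (7626) and CNOT6L (7044), which did not pass. These lengths are those of the longest coding GENCODE transcript, not of the gene models behind the counts. For DIS3 the whole transcript length behind the deposited values was 6746 nucleotides, so the split may not hold for the RNA counted. Across the 56 genes the log2 fold change had a Spearman's rho of 0.26 with transcript length and -0.19 with reads per base. The genes share their libraries, and long transcripts have fewer reads per base at a given count.

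Genes of neighbouring functions, from lists that do not overlap the 56, were also counted. The first list held 53 tested genes, mainly ones that recruit or regulate the decay enzymes (RNA-binding proteins, Argonaute and TNRC6 proteins, poly(A)-binding proteins and others). It also held RQCD1 (the older symbol of CNOT9), which did not pass at -0.12 (SE 0.070), and enzymes that act on RNA themselves. Among these enzymes DXO was higher (0.54, SE 0.11) and TUT1 lower (-0.31, SE 0.084). NUDT16, NOCT, ANGEL1, ANGEL2, PDE12, ZCCHC6 and ZCCHC11 did not pass. Of the 53 genes, 8 rose, 12 fell and 33 did not pass, with a median log2 fold change of -0.047. That is 37.7% called, against 25.9% of all genes. SAMD4A, a Smaug protein that recruits CCR4-NOT, rose from 38.9 ± 1.72 to 105 ± 11.9 CPM, by 1.43 on the log2 scale (SE 0.082) with SDs over n = 2 per group, and CPEB2, which binds a cytoplasmic polyadenylation element, rose by 1.19 (SE 0.15) on that scale. TNRC6C, which ties Argonaute to CCR4-NOT and PAN2-PAN3, fell from 122 ± 5.82 to 87.6 ± 17.5 CPM, by 0.47 on the log2 scale (SE 0.072). That fall was -0.29 without siUPF1 replicate 1 and -0.70 without replicate 2. SAMD4A and CPEB2 passed in all 11 alternatives and TNRC6C in 10, the last with adjusted p from 1.05e-16 to 0.108. The counts of this list were 4 higher and 5 lower with DESeq2, 4 and 3 without control a, 4 and 6 without control b, 5 and 9 without siUPF1 replicate 2, and 4 and 16 after the read density step.

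Of 19 tested cofactors of the nuclear exosome and related nucleases, 1 rose, 3 fell and 15 did not pass (21.1% called). These were the 3′ exonuclease gene ERI1 (0.18, SE 0.074, which passed in 2 of 11 alternatives), the noncanonical poly(A) polymerase gene PAPD5 (-0.27, SE 0.078, 8 of 11), SRRT (-0.22, SE 0.070, 9 of 11, and -0.14 after the read density step) and PABPN1 (-0.37, SE 0.15). DESeq2 called 0 of the 19, as did edgeR without control a, and the number lower in edgeR and limma-voom fits ran from 0 to 5, the most without siUPF1 replicate 2. Of 12 NMD factors, UPF1 fell, 5 rose and 6 did not pass, with a median of 0.15, where 16.8% of all genes rose and 9.14% fell. DESeq2 called 4 of the 12 higher and 1 lower. The number higher was 3 without control b and 8 with the trend on read density removed. SMG9 rose by 0.55 and SMG1 by 0.36 on the log2 scale. Whether the decay genes differ from the NMD factors was not tested.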

How the data were processed

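Whole-number read counts and RPKM values per gene were deposited by the authors in 1 table, per the file headers. STAR, DESeq2 and the build hg19 are named without versions or roles, per the submitters' processing notes; strand use and the handling of reads that map to several places are not given in the sources used here, so paralogs and overlapping genes are uncertain. The control columns share a name and were tied to the group only; 2 columns of control RPKM were not used. The siUPF1 RPKM values deposited by the authors served to derive transcript lengths.

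Counts of all genes were tested with edgeR 4.0.16 in R 4.3.3 (TMM, filterByExpr, glmQLFit and glmQLFTest, two-sided, Benjamini-Hochberg at 0.05), which kept 15557 genes and left out 385. SE is the log2 fold change divided by the square root of F, and 95% intervals use edgeR's degrees of freedom. The common biological coefficient of variation was 4.47%. Alternatives were DESeq2 1.42.0, limma-voom (limma 3.58.1), RLE factors, scaling by library size, 2 other filters, an adjusted p of 0.1, each library left out, and a loess fit (span 0.3) of each library on read density as offset. Libraries of a group were not duplicates (chi-square per degree of freedom of their counts 1.70 for controls and 2.85 for siUPF1). The edgeR script was tested on simulated data. Features and sequences came from GENCODE 29 on GRCh38, matched by symbol for all 56 genes.

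The 56 genes, lists and tests were chosen with earlier results of these data known. Values are given for each gene that passed and for the smallest p in each role. They are also given for paralog pairs and for the 3 smallest p of each outside list. PABPN1, RQCD1 and the enzymes of the first outside list were named after their values were seen. Marker genes not tested are named too, and the remaining genes of the 56 are given by fold change.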

Additional observations from a re-analysis of the deposited data

How the results depend on the processing

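Over 11 alternative fits, no log2 fold change of the 56 genes lay outside -0.32 to 0.33, the 47 genes outside XRN1, XRN2, PAN2, CNOT11, DDX6, DCPS, DIS3L2, EXOSC7 and CNOT4 passed in none, and 39 of the 56 kept one sign throughout. The median over the 56 kept its sign in all 11. DESeq2 called 0 of the 56 higher and 0 lower (3 at an unadjusted p under 0.05), with 1280 and 467 over all genes. With the read density trend taken out, 2 were higher and 5 lower. At an adjusted p of 0.1, 5 were lower. With each library left out in turn, 0 to 1 were higher and 0 to 3 lower, and over all genes 1444 to 2764 were higher and 552 to 1522 lower. The zeros came from leaving out control a or control b (2 and 5 genes with unadjusted p below 0.05), where over all genes 1444 and 552, and 1583 and 610, passed. A group left with 1 library takes its spread from the other group. HBS1L ran from -0.049 to 0.023 with 1 library left out, turning positive without siUPF1 replicate 2, and SKIV2L from -0.063 to 0.0040, turning positive without replicate 1; the cause was not tested. No paired analysis was possible because both control columns carry the same name and so no replicate number. With 2 libraries per group, the number of libraries limits the precision.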
